A study of Mus musculus with 15 samples.

Results

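The 9 genes described here, Drd1, Drd2, Adora2a, Ppp1r1b, Pdyn, Penk, Tac1, Rgs9 and Rarb, mark the projection neurons of the striatum, and they were measured in libraries labelled as cortex. They are 9 of the 56748 genes in the deposited count table, found by symbol through their Ensembl identifiers, and all 9 were among the 22998 genes that passed the filter on low counts. They were selected on measured values: in earlier results of these same data, striatal markers were higher in the stimulated groups and varied between libraries. Their differences between groups were therefore used in the choice and are given as a description. Where a count of these genes called by a tool is given, it stands beside the share of all genes called, and nothing is read from it.

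Striatal projection neurons are inhibitory and fall into a pair of classes. Neurons of the direct pathway carry the dopamine D1 receptor and make dynorphin and substance P, and neurons of the indirect pathway carry the dopamine D2 and adenosine 2A receptors and make enkephalin. Dopamine and adenosine act on cyclic AMP in opposite ways in the classes, and the protein DARPP-32 relays that signal to a phosphatase. The striatum lies beneath the cortex, separated from it by white matter, and some cortical neurons also make several of these transcripts, among them Penk, Pdyn and Tac1 in interneurons and Drd1 and Ppp1r1b in deep layers.

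Bulk RNA sequencing covered 15 wild-type C57BL/6J mice, 5 in each of 3 groups, each killed 3 hours after a single session of repetitive magnetic stimulation of the brain. The groups were intermittent theta-burst stimulation (iTBS), continuous theta-burst stimulation (cTBS) and sham stimulation, with 1 library from each animal. Sample titles name somatosensory cortex and the design text names sensorimotor cortex. The labels used here give no age or sex, and they do not describe the borders of the dissection or the depth of tissue taken.

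Library totals ran from 15385070 to 47807723 counts. Cortical markers were abundant in every library: Slc17a7, the vesicular glutamate transporter of cortical excitatory neurons, lay between 859 and 1443 CPM (counts scaled to equal library size). Some libraries also carried markers of other regions. Thalamic markers were highest in sham 2, where Prkcd had 65.1 CPM against a median of 5.91 CPM over the 15 libraries. Choroid plexus markers were highest in sham 2, sham 5 and cTBS 4, with mean levels of 2.66, 2.58 and 2.57 (log2 CPM), and every other library was at 1.19 or lower. The mean level of 9 nuclear noncoding RNAs, among them Malat1, ran from 5.80 in cTBS 4 to 8.26 in sham 3 (log2 CPM).

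Promoter sequences, from RefSeq on build GRCm38.p6, were at hand for 6 of the 9 genes in 8 entries, and none was given for Adora2a, Ppp1r1b or Penk. Each window holds the 250 bases before the annotated start, 5′ to 3′ on the strand of the gene. They are shown because cyclic AMP and retinoic acid act on genes through known sequence elements. The cyclic AMP response element TGACGTCA was found in none of the 8 entries on either strand and in 1.55% of 32851 promoters in the same table. Its core CGTCA, which is contained in the full element, was found on either strand in 1 of the 8 entries and in 17.8% of promoters. That entry is Tac1, the precursor gene of substance P, with copies in capitals that begin 197 and 43 bases before the start (chr6:7554811-7555060, + strand). A pair of GTTCA copies on 1 strand with starts 11 bases apart, the spacing of retinoic acid response elements, was found in Rarb (chr14:16575477-16575726, - strand) and in 0.067% of promoters. In Rarb, capitals mark both copies with the base before each, and the pair begins 53 bases before the start. A single GTTCA is in 30.5% of promoters. The receptor genes Drd1 (first entry, chr13:54055659-54055908, - strand) and Drd2 (chr9:49340153-49340402, + strand) held neither the core nor the pair and carry no capitals. These matches describe letters in the windows and say nothing of binding.
Tac1: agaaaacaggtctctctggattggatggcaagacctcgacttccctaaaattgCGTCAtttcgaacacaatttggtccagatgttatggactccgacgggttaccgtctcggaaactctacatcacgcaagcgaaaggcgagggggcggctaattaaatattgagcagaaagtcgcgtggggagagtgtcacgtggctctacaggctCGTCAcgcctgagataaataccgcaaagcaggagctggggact
Rarb: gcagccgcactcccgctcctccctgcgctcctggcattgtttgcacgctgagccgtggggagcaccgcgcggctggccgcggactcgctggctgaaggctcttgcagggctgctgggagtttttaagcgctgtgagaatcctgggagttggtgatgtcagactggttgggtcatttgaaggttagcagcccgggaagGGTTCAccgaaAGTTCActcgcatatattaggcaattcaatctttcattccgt
Drd1: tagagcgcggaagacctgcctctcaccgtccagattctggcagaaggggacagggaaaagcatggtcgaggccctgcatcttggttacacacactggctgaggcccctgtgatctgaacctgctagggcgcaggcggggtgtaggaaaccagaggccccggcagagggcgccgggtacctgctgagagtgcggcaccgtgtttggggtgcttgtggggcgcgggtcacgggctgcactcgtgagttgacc
Drd2: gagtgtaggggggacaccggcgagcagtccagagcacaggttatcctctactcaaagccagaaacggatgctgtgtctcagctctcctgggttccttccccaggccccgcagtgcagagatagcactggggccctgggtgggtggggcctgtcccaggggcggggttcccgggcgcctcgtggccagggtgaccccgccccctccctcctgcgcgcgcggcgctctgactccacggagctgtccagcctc

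Among genes of the direct pathway, Drd1 encodes the D1 receptor, which raises cyclic AMP. Drd1 had 32.6, 72.2, 26.9, 24.6 and 41.0 CPM in iTBS libraries 1 to 5, 73.1, 73.2, 24.6, 50.1 and 64.8 CPM in cTBS libraries 1 to 5, and 53.1, 66.7, 16.3, 20.4 and 24.6 CPM in sham libraries 1 to 5. The raw counts behind these levels ran from 313 to 3088. High values occurred in every group: iTBS 2, 4 of the 5 cTBS libraries, and sham 1 and 2. The group ranges overlapped, with means of 39.5 ± 19.4 CPM in iTBS, 57.1 ± 20.5 CPM in cTBS and 36.2 ± 22.3 CPM in sham (SD, n = 5 each).

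Pdyn encodes the precursor of the dynorphins, which act at the kappa opioid receptor. Its levels were 21.3, 28.5, 16.6, 17 and 24.1 CPM in iTBS libraries 1 to 5, 33.0, 44.6, 19.0, 28.5 and 30.5 CPM in cTBS, and 23.3, 27.9, 13.8, 21.1 and 18.8 CPM in sham. Pdyn moved least of the 9 genes, by 3.22-fold between its lowest library, sham 3, and its highest, cTBS 2. Tac1 encodes the precursor of substance P and neurokinin A. It had 17.2, 30.8, 13.9, 10.1 and 18.2 CPM in iTBS libraries 1 to 5, 33.5, 46.1, 13.4, 24.9 and 30.4 CPM in cTBS, and 24, 28.3, 8.79, 10.2 and 11.4 CPM in sham. Both peptide genes peaked in cTBS 2, as Drd1 did, and were lowest in sham 3.

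In the indirect pathway, Drd2 encodes the D2 receptor, which lowers cyclic AMP. Drd2 had 18.9, 58.1, 21.4, 14.4 and 30.4 CPM in iTBS libraries 1 to 5, 52.3, 44.8, 12.5, 39.8 and 50.5 CPM in cTBS, and 39.1, 47.7, 6.61, 8.28 and 12.5 CPM in sham. Adora2a, the gene of the adenosine 2A receptor, which raises cyclic AMP in the same neurons, had 25.9, 63.9, 20.7, 13.7 and 35.1 CPM in iTBS libraries 1 to 5, 68.5, 54.7, 13.8, 46.3 and 54.7 CPM in cTBS, and 37.6, 46.1, 5.83, 9.41 and 11.5 CPM in sham. Adora2a had the widest range of the 9 genes, 11.8-fold from sham 3 to cTBS 1, and Drd2 followed with 8.80-fold from sham 3 to iTBS 2. Within sham, 2 libraries were high for both receptors and 3 were low, with no library between.

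Penk encodes the precursor of the enkephalins, ligands of the delta and mu opioid receptors. It had 89.1, 209, 65.7, 59.0 and 124 CPM in iTBS libraries 1 to 5, 225, 226, 66.4, 165 and 194 CPM in cTBS, and 129, 176, 37.3, 52.2 and 66.8 CPM in sham. The cTBS group again split into 4 high libraries and 1 low one, cTBS 3, which lay within the range of the low sham libraries.

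Both classes of neuron share Ppp1r1b, Rgs9 and Rarb. Ppp1r1b encodes DARPP-32, which inhibits protein phosphatase 1 once protein kinase A has phosphorylated it. It had 125, 210, 99.1, 75.6 and 134 CPM in iTBS libraries 1 to 5, 245, 185, 99.3, 161 and 182 CPM in cTBS, and 149, 148, 66.5, 83.6 and 97.3 CPM in sham. The low libraries of this gene stayed closer to the high ones, and its range was 3.68-fold.

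Rgs9 encodes a protein that speeds the shut-off of G proteins coupled to receptors such as D2. Its levels were 39.5, 135, 40.0, 34.2 and 52.0 CPM in iTBS libraries 1 to 5, 93.7, 84.0, 30.5, 52.7 and 92.5 CPM in cTBS, and 83.2, 99.1, 22.1, 19.5 and 26.6 CPM in sham. Here iTBS 2 and sham 2 were the 2 highest libraries of all. Rarb encodes a retinoic acid receptor needed in the development of striatal neurons in the mouse. It had 5.64, 15.4, 5.95, 6.40 and 7.28 CPM in iTBS libraries 1 to 5, 12.6, 12.5, 5.41, 8.06 and 11.5 CPM in cTBS, and 8.17, 11.1, 3.28, 4.35 and 5.23 CPM in sham. Rarb was the scarcest of the 9, with 63 raw counts in its lowest library and 526 in its highest.

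**Figure D1:**
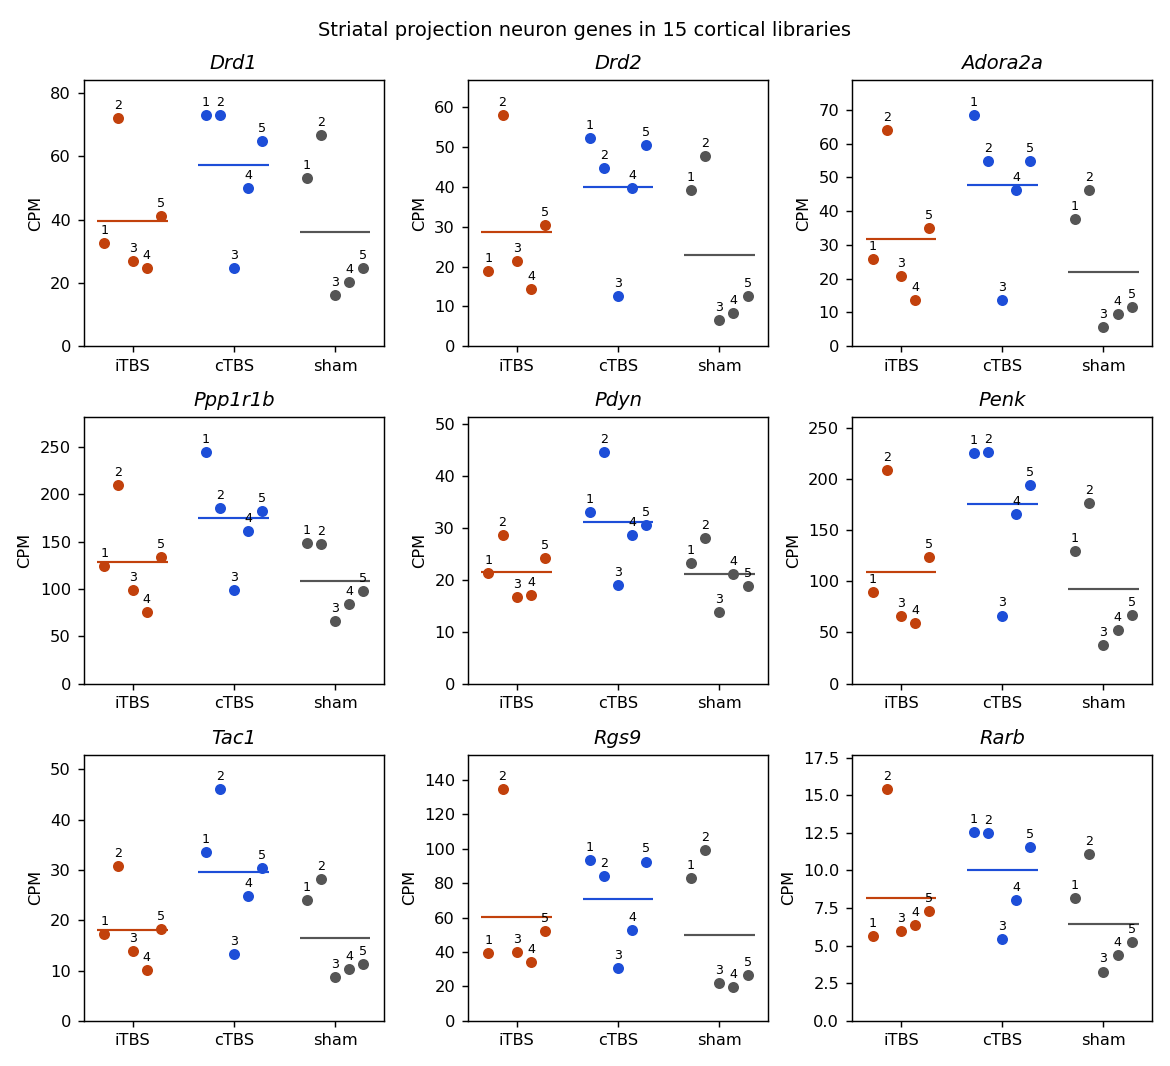
Level of each of the 9 genes in CPM (vertical axis, linear from 0) in the 15 libraries, grouped as iTBS, cTBS and sham; points are libraries with their replicate numbers and lines are group means (n = 5). The same libraries are high for every gene: iTBS 2, cTBS 1, 2, 4 and 5 and sham 2, with sham 1 among them for 8 of the 9 genes.

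Divided by exonic length in the GENCODE M21 annotation (build GRCm38), the opioid precursor Penk had the highest mean level, 66.9 ± 37.5 CPM per kb in iTBS, 107 ± 40.3 in cTBS and 56.5 ± 35.9 in sham (SD, n = 5 each). Ppp1r1b came next with 44.0 ± 17.4, 59.6 ± 17.9 and 37.2 ± 12.8 CPM per kb in iTBS, cTBS and sham. The spreads of Penk and Ppp1r1b overlapped in each group. Whether reads in introns were counted is not stated, so a level per kb of exon may include them. The 3 receptor genes were close to one another per kb of exon in cTBS. There Drd1 stood at 15.8 ± 5.65, Drd2 at 15.7 ± 6.33 and Adora2a at 15.5 ± 6.70 CPM per kb, well within their spread. In sham their means were further apart, at 9.99 ± 6.16, 8.97 ± 7.51 and 7.21 ± 6.01 CPM per kb in that order. In sham 3, the lowest library for each of them, they stood at 4.49, 2.59 and 1.9 CPM per kb. Rgs9, Pdyn and Tac1 followed at 11.1, 10.8 and 8.72 CPM per kb in cTBS. Rarb was lowest in every group, with 1.54 ± 0.78 CPM per kb in iTBS, 1.90 ± 0.60 in cTBS and 1.22 ± 0.60 in sham. These genes also differ in build, since exons make up 80.2% of the 4.52 kb span of Drd1 but 1.36% of the 388 kb span of Rarb.

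The order of the libraries was nearly the same for all 9 genes. In iTBS 2, cTBS 1, 2, 4 and 5 and sham 2, each of the 9 genes ranked among the 7 highest of 15 libraries. Sham 3 was lowest for 8 of the 9 genes, and sham 4 was lowest for Rgs9. Summed over the 9 genes, iTBS libraries 1 to 5 held 375, 822, 310, 255 and 466 CPM, cTBS libraries 837, 772, 285, 577 and 711 CPM, and sham libraries 546, 651, 181, 229 and 275 CPM. The highest library was cTBS 1 and the lowest sham 3, and each group held both high and low libraries. In bulk tissue, fewer cells of a type and less RNA per cell cannot be told apart.

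This spread within groups was wide beside that of other genes. The genes were chosen knowing that striatal markers varied between libraries, so the comparison is given as a description. The SD of log2 CPM within groups ran from 0.39 for Pdyn to 1.04 for Adora2a, with a median of 0.73 over the 9 genes, against a median of 0.17 over the 16883 genes with a mean of at least 1 CPM. Of those 16883 genes, 84.6% had a smaller SD than Pdyn, 99.1% a smaller one than Drd2 and 99.4% a smaller one than Adora2a. The deposited variance-stabilized values (VST, log2-like) showed the same libraries at the ends, with Adora2a at 11.3 in cTBS 1 and 8.55 in sham 3, and Pdyn at 10.7 in cTBS 2 and 9.31 in sham 3.

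Deviations from the group means of log2 CPM were compared gene by gene over the 15 libraries. All 36 pairs of the 9 genes were positively related, with Pearson r from 0.784 to 0.993 and a median of 0.946, and Spearman rho from 0.775 to 0.993. The genes were chosen knowing that striatal markers varied between libraries, so these values describe how tightly they moved together and are given with no test. The tightest pair was Drd1 with Penk (r = 0.993), a receptor of the direct pathway with a peptide of the indirect one. Drd2 with Adora2a, both of the indirect pathway, had r = 0.988. The loosest pairs were Pdyn with Rgs9 (r = 0.784) and Pdyn with Drd2 (r = 0.819). Without the 2 libraries farthest from the median of the first gene, r lay between 0.687 and 0.988.

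Although they moved together, the genes did not move by the same proportion. A straight line of each gene on Adora2a over the 15 libraries, a description added after the data were seen, left a level at zero Adora2a that differed from gene to gene. For Drd2 this intercept was 2.37 ± 1.90 CPM (SE), or 7.78% of its median level, and for Penk 18 ± 6.72 CPM, or 14.5%. For Rgs9 it was 9.22 ± 7.48 CPM (17.7%), for Drd1 10.7 ± 2.55 CPM (26.2%) and for Tac1 5.58 ± 2.37 CPM (30.6%). Higher shares were found for Rarb, with 2.75 ± 0.61 CPM (37.8%), Ppp1r1b, with 55.1 ± 5.62 CPM (41.1%), and Pdyn, with 14 ± 2.26 CPM (60.0%). Without the 2 libraries farthest from the median of Adora2a, the intercept was 1.14 CPM for Drd2 and 4.22 CPM for Rgs9, against 14.1 CPM for Pdyn and 60.6 CPM for Ppp1r1b. Adora2a had the widest fold range of the 9 genes, so lines of the other genes on it tend to have an intercept above 0. The lowest Adora2a level was 5.83 CPM, so each intercept extends the line past the data.

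**Figure D2:**
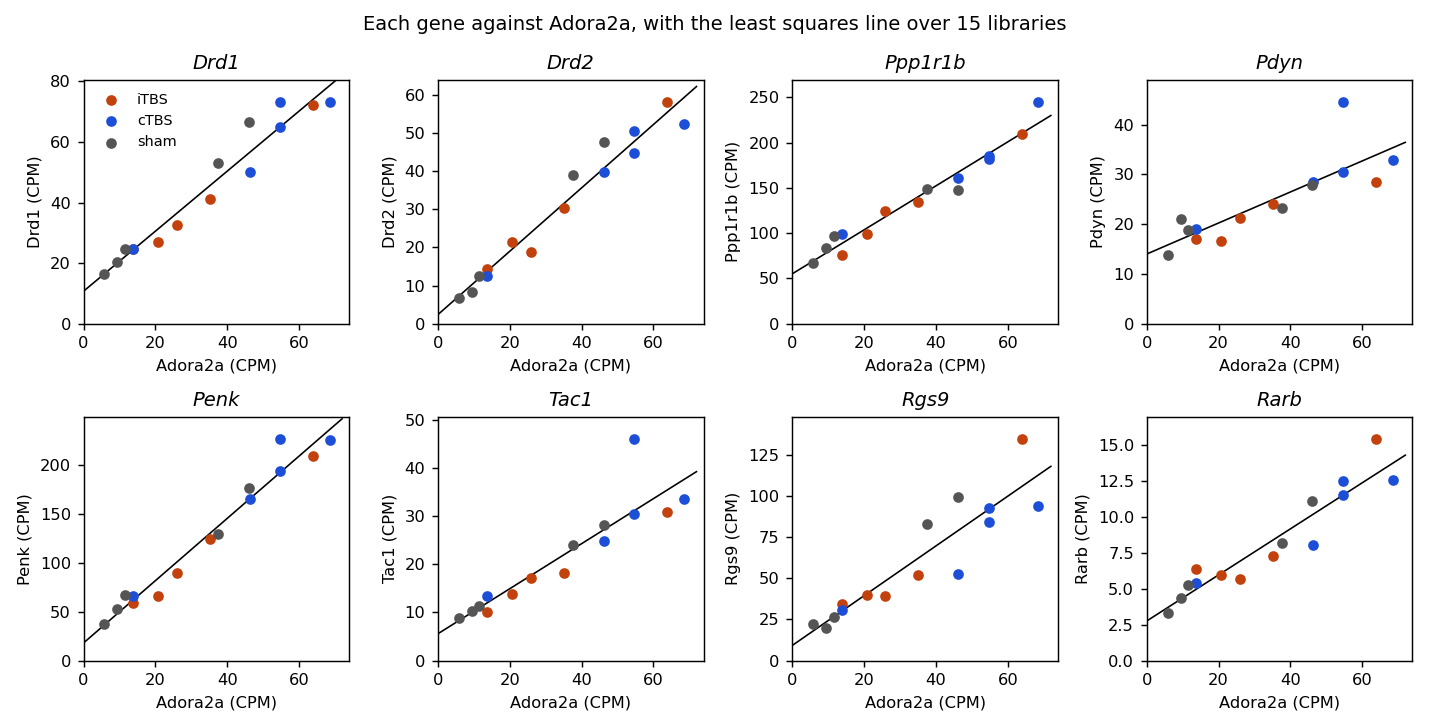
Level of 8 genes against Adora2a (both in CPM, linear axes) in 15 libraries coloured as iTBS, cTBS and sham, with the least squares line over all libraries. Drd2 runs close to the origin (intercept 2.37 CPM), while the lines of Pdyn (14 CPM) and Ppp1r1b (55.1 CPM) meet the vertical axis well above 0; no library has less than 5.83 CPM of Adora2a.

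The ratio of Drd1 to Drd2 counts, which scaling between libraries cannot change, was taken as a measure of the balance of the pathways. It is an imperfect one, since some cortical neurons also make Drd1. The intercept on Adora2a was 26.2% of the median for Drd1 and 7.78% for Drd2. The ratio can therefore change with the amount of striatal RNA alone, and its test cannot separate that from the balance of the pathways. The ratio was 1.73, 1.24, 1.26, 1.71 and 1.35 in iTBS libraries 1 to 5, 1.40, 1.63, 1.96, 1.26 and 1.28 in cTBS, and 1.36, 1.40, 2.46, 2.47 and 1.96 in sham. The 4 libraries with the highest ratios, sham 3, 4 and 5 and cTBS 3, were the 4 with the least Drd2 RNA. On the log2 scale the ratio averaged 0.53 ± 0.24 in iTBS, 0.57 ± 0.27 in cTBS and 0.90 ± 0.42 in sham (SD, n = 5 each). The difference was -0.37 for iTBS against sham (exact permutation test, two-sided, p = 0.119, adjusted p = 0.226 over the 3 comparisons). All 5 iTBS libraries lay below 3 of the 5 sham libraries, and the other 2 sham libraries lay among them. In cTBS against sham the log2 ratio differed by -0.33 (exact permutation test, p = 0.151, adjusted p = 0.226), and in iTBS against cTBS by -0.04 (exact permutation test, p = 0.77, adjusted p = 0.77). None of the 3 differences passed. Since the ratio can follow the level of striatal RNA, on which the genes were chosen, these p-values are not free of that choice. With 5 against 5 libraries the smallest p that the test can give is 0.00794.

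For iTBS against sham, the comparison that asks what intermittent stimulation did, all 9 genes had a log2 fold change above 0, as did 49.5% of the 22998 genes tested. The values were small beside their errors. Among receptors, the log2 fold change was 0.13 ± 0.39 for Drd1, 0.33 ± 0.53 for Drd2 and 0.54 ± 0.54 for Adora2a (edgeR, SE). Among peptide precursors it was 0.04 ± 0.21 for Pdyn, 0.14 ± 0.37 for Tac1 and 0.25 ± 0.43 for Penk. For the shared genes it was 0.24 ± 0.28 for Ppp1r1b, 0.27 ± 0.49 for Rgs9 and 0.35 ± 0.34 for Rarb. The median over the 9 was 0.25, against -0.00097 over all genes tested. The direction rested on 1 library: without iTBS 2, the median was -0.10. It was 0.62 without sham 2, a high library of the other group. No member passed an adjusted p of 0.05 in edgeR, and neither did any gene (0%). At an unadjusted p under 0.05 edgeR called 0 members and 1.93% of genes, and DESeq2 passed 0 genes after adjustment. Groups did not overlap for 0 members and 0.452% of genes.

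For cTBS against sham, the log2 fold changes were larger and again all above 0, as were those of 46.5% of genes tested. Adora2a had the highest, 1.11 ± 0.54, and Drd2 had 0.81 ± 0.52 and Drd1 0.66 ± 0.39 (edgeR, SE). The peptide genes had 0.93 ± 0.43 for Penk, 0.85 ± 0.36 for Tac1 and 0.56 ± 0.21 for Pdyn. Ppp1r1b, Rarb and Rgs9 had 0.68 ± 0.28, 0.64 ± 0.34 and 0.50 ± 0.49. The median was 0.68, against -0.023 over all genes, and it lay between 0.55 and 1.00 when each library was left out in turn. The groups overlapped for every member, through the low library cTBS 3 and the high libraries sham 1 and 2, while 1.34% of genes did not overlap. At an unadjusted p under 0.05 edgeR called 4 of the 9 genes, Ppp1r1b, Pdyn, Penk and Tac1, and 24.4% of all genes; the choice of the 9 used these differences, so the count supports nothing. None passed after adjustment in either tool, with edgeR passing 0 of all genes (0%) and DESeq2 132. This comparison and that of iTBS against sham share the 5 sham libraries.

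In iTBS against cTBS the 9 genes were all below 0, as were 46.1% of genes tested. The log2 fold changes were -0.71 ± 0.36 for Tac1, -0.68 ± 0.43 for Penk and -0.53 ± 0.21 for Pdyn (edgeR, SE). They were -0.57 ± 0.53 for Adora2a, -0.53 ± 0.39 for Drd1 and -0.48 ± 0.52 for Drd2. Ppp1r1b, Rarb and Rgs9 had -0.44 ± 0.28, -0.29 ± 0.34 and -0.23 ± 0.48. The median was -0.53, against 0.027 over all genes, and it was -0.87 without iTBS 2, the 1 iTBS library that matched the high cTBS libraries. Only Pdyn had an unadjusted p under 0.05 in edgeR, beside 30.6% of all genes. No member and no gene passed after adjustment in edgeR (0%), and DESeq2 passed 2618 genes but no member. Groups did not overlap for 0 members and 3.92% of genes.

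**Figure D3:**
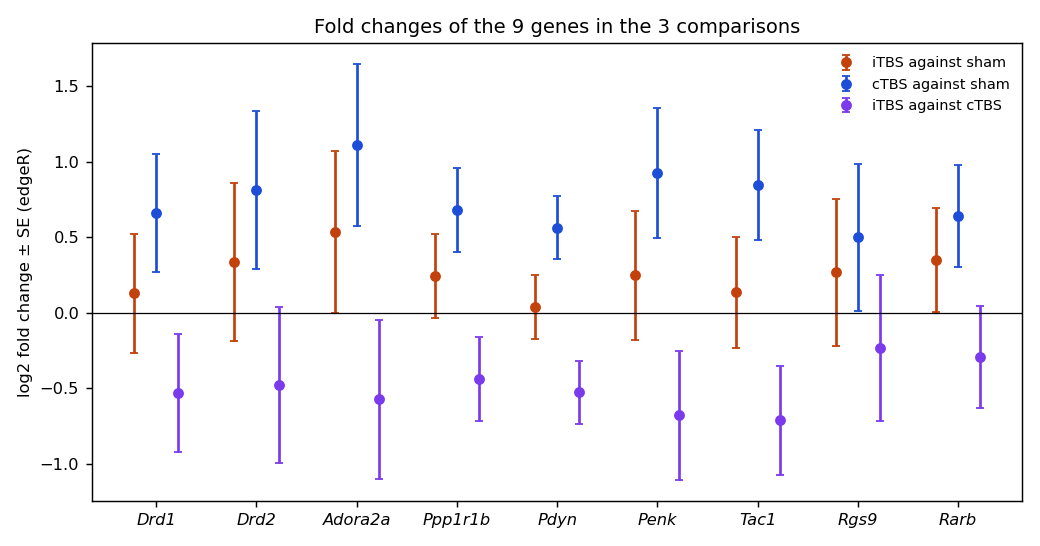
Log2 fold change with its standard error (edgeR, 15 libraries) for each of the 9 genes in iTBS against sham, cTBS against sham and iTBS against cTBS. Values for cTBS against sham run from 0.50 (Rgs9) to 1.11 (Adora2a), and those for iTBS against sham from 0.04 (Pdyn) to 0.54 (Adora2a); the genes were chosen with these differences known.

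Outside the 9 genes, those whose deviations from group means were most like their mean level over the 15 libraries included several known from the striatum. Of 16874 genes with a mean of at least 1 CPM, 110 had r over 0.9 with that mean, and the median r was 0.026. The highest was Gpr6 (r = 0.994), an orphan receptor of indirect pathway neurons, which ran from 2.24 to 17 CPM. Others were Serpina9 (0.990), the phosphodiesterase gene Pde1b (0.990), Gprin3 (0.985) and Pde10a (0.983), whose enzyme breaks down cyclic AMP and cyclic GMP. An unnamed gene, ENSMUSG00000118401 (0.982), Ano2 (0.980), Adcy5 (0.980), the main striatal adenylyl cyclase, and Slc5a7 (0.980), the choline transporter of cholinergic neurons, were also among the 10 highest. Library content is shared by all such genes, so these r are given with no p.

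Taken gene by gene, the nearest neighbour was Gpr6 for Drd1 (r = 0.992) and Pde10a for Drd2 (0.988). Penk was closest to Pde1b (0.985), Rgs9 to Gprin3 (0.983), Ppp1r1b to Mctp1 (0.971) and Rarb to Prima1 (0.981). The nearest gene to Pdyn was Gad2 (0.982), which makes the transmitter GABA in inhibitory neurons of both cortex and striatum. Tac1 was nearest to Slc5a7 (0.985).

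Of 18 other markers of striatal projection neurons, 17 were tested, Drd3 having too few counts, and 15 of the 17 had r over 0.9 with the mean of the 9 genes. The exceptions were Rgs14 (0.61) and Sp9 (-0.02). Their mean level ran from 4.05 to 5.43 in iTBS, 4.01 to 5.54 in cTBS and 3.44 to 5.21 in sham (log2 CPM). Gpr6 was lowest in sham 3 and highest in cTBS 1. The median log2 fold change of the 17 was 0.23 in iTBS against sham, 0.61 in cTBS against sham and -0.40 in iTBS against cTBS, with none past adjustment in edgeR. At an unadjusted p under 0.05 there were 0, 3 and 1 of them, beside 1.93%, 24.4% and 30.6% of all genes.

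The relay of dopamine and adenosine signals was a mixture. As a list its 13 tested genes had r = 0.95 with the mean of the 9 genes, and the median r of the single genes was 0.52. The 5 with r over 0.9 were Gng7 and Gnal, G protein subunits, the cyclase gene Adcy5, and the phosphodiesterase genes Pde10a and Pde1b. Of these, Gnal, Adcy5 and Pde10a are also in the list of other striatal markers, so the lists are not separate. Gng7 ran from 55.7 CPM in sham 3 to 223 CPM in cTBS 1. In contrast, Prkaca, the catalytic subunit of protein kinase A, had r = -0.09, Cdk5, a kinase of DARPP-32, had -0.48, and Adora1, the A1 receptor gene, had -0.59. All 13 were above 0 in cTBS against sham (median 0.27), as were 46.5% of all genes. At an unadjusted p under 0.05 in edgeR there were 6, beside 24.4% of all genes. These were Adcy5, Gnb5, Prkar2b, Ppp1ca, Ppp3ca and Cdk5, and only Adcy5 is among the 5 with r over 0.9. In iTBS against sham 10 of 13 were above 0, as were 49.5% of all genes (median 0.06, 0 at an unadjusted p under 0.05, beside 1.93% of all genes). In iTBS against cTBS all 13 were below 0, as were 46.1% of all genes (median -0.20, 4 at an unadjusted p under 0.05, beside 30.6% of all genes).

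Peptide processing and receptor genes were divided. The level of the 10 genes had r = 0.88 with the mean of the 9 genes, and the median r of the single genes was 0.11. The convertase genes Pcsk1 and Pcsk2, which cut the opioid and tachykinin precursors, had r = -0.48 and -0.03, with Pcsk1 between 56.6 and 82.8 CPM. Only Tacr1, the substance P receptor, had r over 0.9 (0.979). The receptor genes Tacr3, Oprm1 and Oprk1 had 0.83, 0.74 and 0.69, while Oprd1, the delta opioid receptor gene, had -0.03. The median log2 fold changes of the 10 genes were 0.0021 in iTBS against sham, 0.06 in cTBS against sham and -0.08 in iTBS against cTBS. At an unadjusted p under 0.05 in edgeR there were 0, 0 and 2 of them, beside 1.93%, 24.4% and 30.6% of all genes. Among 11 retinoid genes, Rxrg, a partner receptor of Rarb, was alone in having r over 0.9 (0.979), and it ran from 5.25 CPM in sham 3 to 28.1 CPM in iTBS 2. Rxrg is also in the list of other striatal markers. Rxra and Rxrb, the other partner receptors, had r = -0.37 and -0.12. The median log2 fold change of the retinoid genes was 0.0089, 0.14 and -0.13 in the 3 comparisons in the same order, with 1, 2 and 1 at an unadjusted p under 0.05 beside those same shares of all genes. As a list the 11 had r = 0.71, but the median r of the single genes was 0.06.

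**Figure D4:**
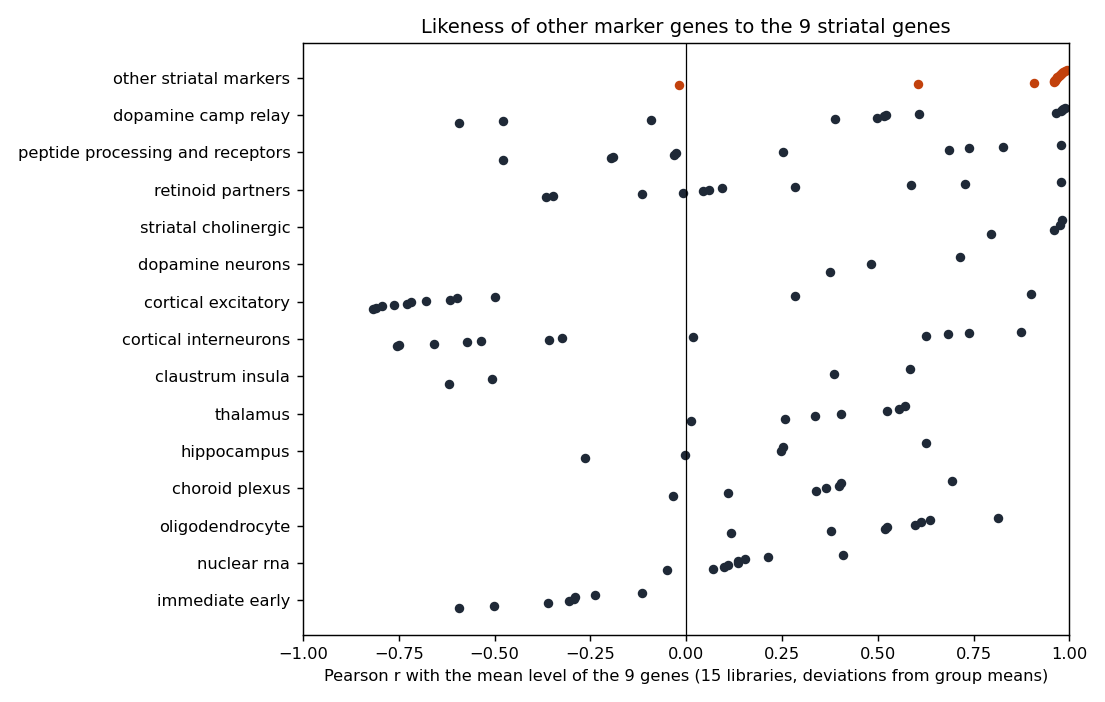
Pearson r over 15 libraries between the deviations of each marker gene and those of the mean of the 9 genes, 1 point per gene and 1 row per list. Of the other striatal markers 15 of 17 lie above 0.9, and 10 of the 12 cortical excitatory markers lie below 0.

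Markers of neighbouring cells were set beside these levels, and their part in the differences between groups was not tested. Of the 4 tested cholinergic genes, Chat, Slc5a7 and Slc18a3 had r of 0.975, 0.980 and 0.961 with the 9 genes, and Slc5a7 ran from 1.30 CPM in sham 3 to 15.2 CPM in cTBS 2. The mean level of the 4 ran from -0.34 to 1.80 in iTBS, -0.58 to 2.64 in cTBS and -0.84 to 1.55 in sham (log2 CPM). Their list had median log2 fold changes of 0.23 in iTBS against sham, 1.05 in cTBS against sham and -0.86 in iTBS against cTBS. Cortical excitatory markers went the other way, with r = -0.72 between the level of 12 genes and the 9 genes, and their mean level ran from 6.32 to 6.67 in iTBS, 6.32 to 6.60 in cTBS and 6.08 to 6.74 in sham (log2 CPM), lowest in sham 2 and highest in sham 4. Within that list the exceptions were Foxp2, which striatal neurons also express (r = 0.901), and Tle4 (r = 0.28). Cortical interneuron markers had r = -0.35 as a list, with Gad2 at 0.87 and Lamp5 at -0.75. Claustrum and insula markers had r = -0.33 and hippocampal markers, highest in cTBS 5, 0.13. Oligodendrocyte markers, as a sign of white matter, had r = 0.55, with mean levels of 7.15 to 7.67 in iTBS, 7.51 to 8.01 in cTBS and 7.33 to 7.86 in sham (log2 CPM). Thalamic markers had r = 0.49, with a mean level of 5.54 in sham 2 and at most 4.13 in every other library (log2 CPM). Choroid plexus markers had r = 0.38, with sham 2, sham 5 and cTBS 4 well above the rest. Neither r describes a graded relation over the 15 libraries. Among choroid plexus genes Folr1 was at 0 in iTBS 2 and Otx2 at 0 in iTBS 3. Among midbrain dopamine neuron genes, Slc6a3, Pitx3 and En1 were too low to test, Th lay between 1.2 and 3.06 CPM, Ddc between 1.85 and 4.41 CPM and Slc18a2 between 7.80 and 11.3 CPM, and the 3 tested had r = 0.69 as a list. Immediate early genes, which neuronal activity switches on, had r = -0.37 as a list.

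Of these other lists, 9 of 9 nuclear noncoding RNAs were at an unadjusted p under 0.05 in cTBS against sham, all lower, with a median log2 fold change of -1.0. Their mean level ran from 6.95 to 8.11 in iTBS, 5.80 to 7.22 in cTBS and 6.33 to 8.26 in sham (log2 CPM). In cTBS against sham, where 24.4% of all genes were called unadjusted, 2 of 8 oligodendrocyte markers were called (median 0.21) and 1 of 12 cortical excitatory markers (median -0.03). In iTBS against cTBS, where 30.6% of all genes were called unadjusted, 8 of 9 nuclear RNAs were called, all higher (median 1.06), as were 6 of 8 oligodendrocyte markers, all lower (median -0.28). No gene of any list passed adjustment in edgeR. Once the nuclear RNA level entered the model, an alternative added after the data were seen, the median of the 9 striatal genes was 0.24 in iTBS against sham, 1.11 in cTBS against sham and -0.86 in iTBS against cTBS. Without sham 2, sham 5 and cTBS 4, the libraries with high choroid plexus or thalamic markers, it was 0.55, 1.05 and -0.61. Without sham 2 alone, which was also high for the 9 genes, it was 0.62, 1.00 and -0.53. It was 0.15, 0.65 and -0.53 without sham 5 alone, and 0.25, 0.77 and -0.61 without cTBS 4 alone.

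The proportions among the 9 genes were also compared with the nuclear RNA level, since total RNA libraries hold unspliced transcripts and the genes differ widely in intron length. These 8 relations were looked at after the data were seen, as log2 ratios of each gene to Drd1, in deviations from group means over 15 libraries. Rgs9 was the 1 gene whose ratio passed, with r = 0.76 (permutation p = 0.00116, adjusted over the 8 relations p = 0.00928) and rho = 0.70 (permutation p = 0.00468, adjusted p = 0.0374). Its r was 0.609 without the 2 libraries farthest from the median nuclear level, between 0.647 and 0.816 when each library was left out, and 0.762 with Malat1 alone as the measure. In counts per Drd1 count, Rgs9 stood at 1.36 in sham 3, the library with the most nuclear RNA, and at 1.05 in cTBS 4, the library with the least. The highest ratio, 1.86, was that of iTBS 2, and the lowest, 0.957, that of sham 4. The ratio of Penk had r = -0.48 (permutation p = 0.0667, adjusted p = 0.267; rho = -0.454, permutation p = 0.0899, adjusted p = 0.36). The other ratios had r between -0.38 for Ppp1r1b and 0.21 for Rarb, the gene with the longest span, and did not pass. Among them was Drd2, whose span of 67.6 kb is near the 72.8 kb of Rgs9, with r = 0.158 (permutation p = 0.572, adjusted p = 0.653). Whether unspliced transcripts had a part in the Rgs9 ratio was not tested.

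**Figure D5:**
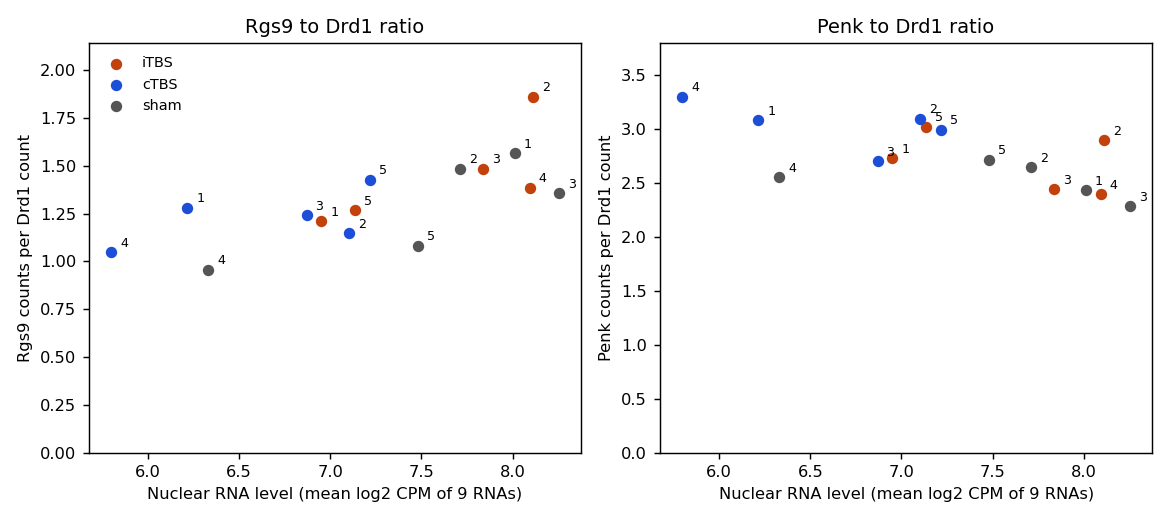
Counts of Rgs9 (left) and Penk (right) per Drd1 count in each of the 15 libraries, on linear axes from 0, against the nuclear RNA level (mean log2 CPM of 9 RNAs), coloured as iTBS, cTBS and sham with replicate numbers. The Rgs9 ratio is higher where nuclear RNA is higher (r = 0.76 in deviations from group means), and the Penk ratio had r = -0.48, which did not pass.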

How the data were processed

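The authors deposited raw counts per Ensembl gene for 15 libraries, with no normalization, and a second table of 45315 genes, in log2-like units after variance stabilization. Per the labels' protocols, libraries were stranded total RNA with ribosomal RNA depletion; the submitters' processing notes name fastp, STAR, DESeq2 and GRCm39. Counter, annotation and strand setting were not given in the sources used here, so overlapping genes are uncertain. Symbols matched 52073 of 56748 identifiers.

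Counts of all 15 libraries were fitted with edgeR 4.0.16 in R 4.3.3 (quasi-likelihood F test), with a term per group, TMM scaling and the default filter, which kept 22998 genes and 99.9% of counts. Benjamini-Hochberg adjusted p under 0.05 counted as passing; SE is the log2 fold change divided by the square root of F. CPM used TMM library sizes, and log2 CPM a prior count of 2. The Drd1 to Drd2 ratio used counts plus 0.5. Alternatives were RLE scaling, DESeq2 1.42.0, limma 3.58.1 on the deposited values, no filter, the 2 groups alone, a replicate block, the library number, and each library left out. The fit was tested on simulated data in which each gene varied on its own. Such data hold no variation shared between genes, so that test does not cover it. No libraries of a group agreed within counting noise (chi-square per gene of at least 7.44). The labels give 5 animals per group.

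The 9 genes, the marker lists and the tests were chosen with earlier results of these data known. Named genes are the 9, the nearest gene to each, the 10 nearest to their mean, and the first genes of each list, of which some are not reported here; others in the text were picked after their values were seen.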

Additional observations from a re-analysis of the deposited data

Results flagged for a closer look

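In each group of 5 libraries, the gap between the highest or lowest library and its nearest neighbour was divided by the range of the group, for 30 groups of values: the 9 genes and the log2 Drd1 to Drd2 ratio in 3 groups. A total of 4 stood out, and chance flags about 1 in 20 such groups. In cTBS, library 3 was far below the others for Drd2 (3.65 log2 CPM, gap 0.807 of the range), Adora2a (3.79, gap 0.755) and Penk (6.05, gap 0.744). That library was the lowest of cTBS for each of the 9 genes, so these flags do not set the indirect pathway apart. In iTBS, library 2 was far above the others for Rarb (3.95 log2 CPM, gap 0.747). The 9 genes vary together, so these values are not independent of one another.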

How the results depend on the processing

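Across every alternative run, no adjusted p of the 9 genes passed 0.05, and of 648 of their fold changes 17 had the other sign, all in iTBS against sham. Those 17 came without iTBS 2, iTBS 5, sham 3, sham 4 or sham 5, or when the library number entered the model. The median of the 9 genes in iTBS against sham ran from -0.10 without iTBS 2 to 0.62 without sham 2; it was 0.08, 0.11 and 0.15 without sham 3, 4 and 5, 0.40 without sham 1, 0.38 and 0.40 without iTBS 3 and 4, and 0.11 with the library number. It kept its sign in the other comparisons, from 0.55 to 1.00 in cTBS against sham and from -0.87 to -0.38 in iTBS against cTBS over libraries left out. The count of genes passing depended on the tool and on single libraries: DESeq2 passed 132 genes in cTBS against sham and 2618 in iTBS against cTBS, against 0 in edgeR, and leaving out 1 library gave 0 to 5726 (without sham 4) in cTBS against sham and 0 to 4474 (without iTBS 1) in iTBS against cTBS, where it was 3637 without sham 4 and 3380 without cTBS 5; the cause was not tested. With a replicate block, 5 genes passed in iTBS against cTBS, and the medians were 0.33, 0.77 and -0.53. Libraries of different groups with the same number had correlations from -0.68 to 0.80 (median 0.145). Those with different numbers had correlations from -0.83 to 0.807 (median -0.00459). These ranges overlap almost wholly, so they cannot decide whether the numbers pair the animals. The lowest r among the 36 pairs lay between 0.737 and 0.859 over the alternatives run. The Drd1 to Drd2 difference in iTBS against cTBS ran from -0.11 to 0.06 over libraries left out, and the others stayed below 0; on the deposited values the differences were -0.23 in iTBS against sham and -0.17 in cTBS against sham. Rarb, with 63 counts in its lowest library, has the least depth.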
